A study of Mus musculus with 12 samples.

Results

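STAT5 regions were examined at 3 genes of the actin cytoskeleton in mouse embryonic fibroblasts, that is, connective tissue cells cultured from fetuses. Vcl encodes vinculin, which couples integrin and cadherin adhesions to actin filaments. Actn1 encodes alpha-actinin 1, which cross-links actin filaments and anchors them at adhesions. Mkl1, also named Mrtfa, encodes a coactivator of serum response factor (SRF). The windows were set at 21.70 to 21.90 Mb on chromosome 14 for Vcl (200 kb), 81.24 to 81.40 Mb on chromosome 12 for Actn1 (160 kb) and 80.82 to 81.06 Mb on chromosome 15 for Mkl1 (240 kb), all on build mm9, and a region belonged to a window when its centre lay in it. They held 168 of the 156642 regions in the lists used here, namely 14 of 13278 in wild-type cells, 81 of 71561 in overexpression replicate 1 and 73 of 71803 in overexpression replicate 2. That the windows hold these genes was taken as given, since no gene positions on mm9 were at hand. The windows were chosen from these same lists, with the crowding of regions around the genes known. Numbers of regions in them are therefore a description and carry no test.

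The libraries came from a chromatin immunoprecipitation and sequencing (ChIP-seq) study of STAT5 with 12 libraries in all. Fibroblasts were isolated from fetuses of day 12.5 to 13.5 of Stat5+/- intercrosses on the C57BL/6 background and used at passage 9 to 10. The lists used here come from STAT5 wild type cells (1 library) and from STAT5A-Stat5-/- cells, which lack endogenous Stat5 and overexpress STAT5A (2 libraries, the second titled as a repeat). The promoter that drives STAT5A and the number of clones or animals behind each library are not stated by the labels. All 3 libraries were made with an antibody to STAT5, after 5 h without serum followed by 45 min with growth hormone at 1 µg/ml. For replicate 2 this rests on the name of its list, since the labels tie that list to an unstimulated as well as a stimulated STAT5 library of the repeat. The other 9 libraries (IgG, unstimulated and Stat5-/- cells) were not analysed here, so no background from cells without STAT5 stands beside the values below. Each list gives positions without a height, score or p-value. The depth of the libraries is unknown, and the lists differ in form, so the number and width of regions can differ between lists for reasons that were not tested.

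Growth hormone and cytokines cause STAT5A and STAT5B to be phosphorylated and to move into the nucleus, where they bind DNA at the motif TTCNNNGAA. The MKL1 protein is held in the cytoplasm by monomeric actin. When actin polymerises, MKL1 is released, enters the nucleus and acts with SRF at a motif named the CArG box, which many genes of the cytoskeleton and of adhesions carry near their start. Vcl and Actn1 are known as targets of this pathway, so the genes stand for its coactivator and for structural proteins under its control.

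The promoters of the genes are shown because they are where both motifs would be sought first. The sequences are from RefSeq on build GRCm38.p6, reach from 250 bases before to 50 bases after an annotated start, and were matched for 3 of 3 genes, Mkl1 by its current symbol Mrtfa, with 2 annotated starts. Each is printed 5′ to 3′ on the strand of the gene, with matches to TTCNNNGAA or to the CArG box in capitals. Both motifs read the same on either strand, and no matches overlapped.
Vcl promoter, chr14:20929148-20929447, plus strand: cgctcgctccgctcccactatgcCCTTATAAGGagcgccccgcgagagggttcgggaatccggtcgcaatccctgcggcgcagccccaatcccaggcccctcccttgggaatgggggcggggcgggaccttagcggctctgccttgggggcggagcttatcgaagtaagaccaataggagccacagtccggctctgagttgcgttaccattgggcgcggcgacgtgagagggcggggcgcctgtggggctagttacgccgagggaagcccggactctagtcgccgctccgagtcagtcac
Actn1 promoter, chr12:80260314-80260613, minus strand: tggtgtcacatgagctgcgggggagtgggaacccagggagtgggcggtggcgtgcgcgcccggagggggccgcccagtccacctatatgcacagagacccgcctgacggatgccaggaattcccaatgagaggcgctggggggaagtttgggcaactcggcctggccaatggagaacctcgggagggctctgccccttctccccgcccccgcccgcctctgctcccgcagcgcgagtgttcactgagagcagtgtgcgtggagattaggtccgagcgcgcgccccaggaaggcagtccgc
Mkl1 promoter 1, chr15:81190687-81190986, minus strand: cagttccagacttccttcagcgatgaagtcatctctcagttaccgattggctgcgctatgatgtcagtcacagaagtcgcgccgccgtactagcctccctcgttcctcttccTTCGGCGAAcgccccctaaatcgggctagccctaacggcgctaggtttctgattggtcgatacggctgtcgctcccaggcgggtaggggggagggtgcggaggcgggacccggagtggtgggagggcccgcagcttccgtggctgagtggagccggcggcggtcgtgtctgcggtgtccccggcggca
Mkl1 promoter 2, chr15:81104998-81105297, minus strand: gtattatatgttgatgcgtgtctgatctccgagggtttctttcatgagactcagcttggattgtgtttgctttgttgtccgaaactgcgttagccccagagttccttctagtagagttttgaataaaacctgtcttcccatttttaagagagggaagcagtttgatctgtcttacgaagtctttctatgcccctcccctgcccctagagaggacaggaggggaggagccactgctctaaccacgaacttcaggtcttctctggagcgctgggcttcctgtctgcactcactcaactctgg

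The Vcl promoter held a CArG box, CCTTATAAGG, at bases 24 to 33 of the printed run. Of 32851 mouse promoters of the same length, 535 (1.63%) held a CArG box. The first Mkl1 promoter held one match to the STAT motif, TTCGGCGAA, at bases 113 to 121, as did 2726 of all promoters (8.3%) anywhere in their window. Neither motif was found in the printed windows of Actn1 or of the second Mkl1 start, which says only that these letters are not there. A match of this kind is a description, not a bound site. The promoters are on another build than the regions and no positions were converted, so which region lies on which promoter, exon or intron was not analysed here. In the gene table the coding neighbours are Plau and Ap3m1 for Vcl, Gm52006 and Dcaf5 for Actn1, and Sgsm3 and Mchr1 for Mkl1. Parts of neighbouring genes may lie in the windows, so a region is placed below by window and not assigned to a gene.

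The first comparison asked how many regions lay at each gene with and without overexpression. At Vcl there were 5 regions in wild type, 34 in overexpression replicate 1 and 28 in overexpression replicate 2. The Actn1 window held 5, 22 and 25, and the Mkl1 window 4, 25 and 20. In each window both overexpression replicates exceeded wild type. The numbers were 6.80 and 5.60 times that of wild type at Vcl, 4.40 and 5.00 times at Actn1 and 6.25 and 5.00 times at Mkl1, where the whole lists gave 5.39 and 5.41 times. Over the 3 windows the ratios were 5.79 and 5.21. The ratios at these genes were thus close to those of the lists as a whole, and 4 or 5 wild-type regions a window are too few to rank the genes by them.

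**Figure D1:**
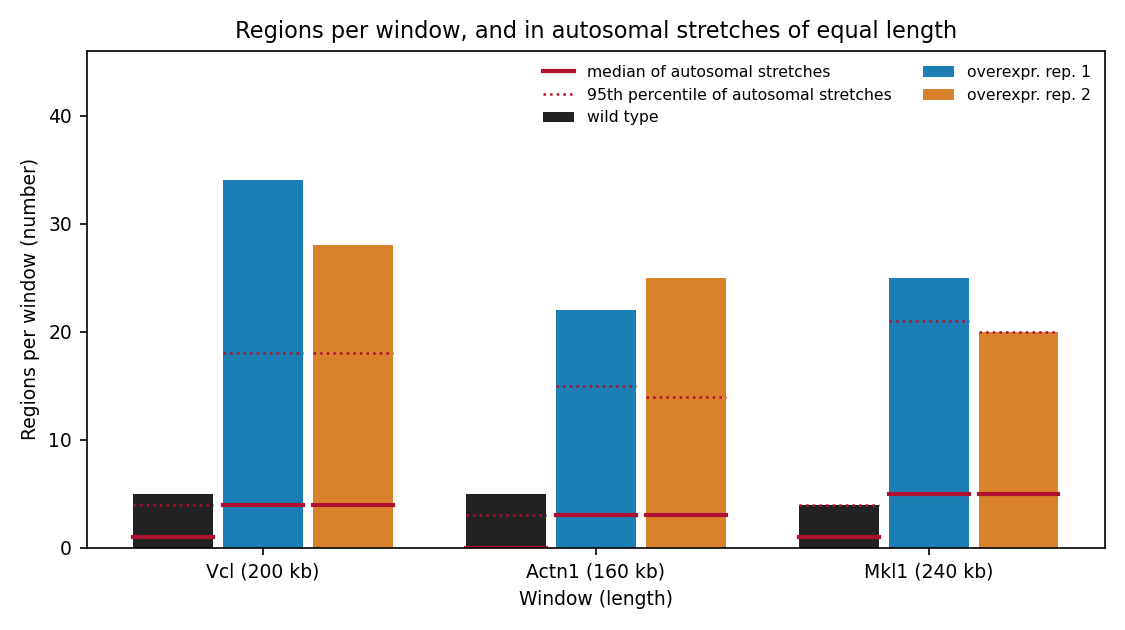
Number of STAT5 regions (y axis) in the Vcl, Actn1 and Mkl1 windows (x axis) in each of the 3 lists (bars), with the median (solid line) and the 95th percentile (dotted line) of autosomal stretches of equal length. Vcl, with 34 and 28 regions in the overexpression replicates, and Actn1, with 22 and 25, stand above the 95th percentile, and the Mkl1 bars stand at or little above it. Crowding led to the choice of the windows, so nothing is read from the height of the bars against these lines.

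In density, Vcl had 25 wild-type regions per Mb, and the replicates of the overexpressing cells had 170 and 140. The Actn1 window had 31.2, 137.5 and 156.2 per Mb, and the Mkl1 window 16.7, 104.2 and 83.3. The autosomes as a whole had 5.31, 28.3 and 28.4 regions per Mb. Each window thus lay above the autosomes in all 3 lists, Mkl1 least, with only 4 or 5 regions a window in wild type. When the autosomes were cut into stretches of 200 kb, at least as many regions as at Vcl were found in 2.87% of 12349 stretches in wild type, and in 0.251% and 0.348% in replicates 1 and 2. For Actn1, in 15438 stretches of 160 kb, the shares were 1.66, 1.18 and 0.214%, and for Mkl1, in 10288 stretches of 240 kb, 8.20, 2.67 and 5.81%. Since crowding led to the choice of the windows, nothing is read from these densities and shares.

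The length covered by regions showed one difference between replicates that their numbers did not. At Vcl, regions covered 0.801% of the window in wild type, and 7.09% and 7.11% in replicates 1 and 2. At Mkl1 the values were 0.725, 5.13 and 4.62%. At Actn1 they were 1.68, 6.51 and 10.1%, that is 2680, 10418 and 16114 bp. The autosomes had 0.208, 1.19 and 1.23%. Replicate 2 thus covered more of the Actn1 window than replicate 1 with 25 against 22 regions, while the replicates were close at Vcl, at Mkl1 and over the autosomes. With 1 list per replicate this difference has no test.

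**Figure D2:**
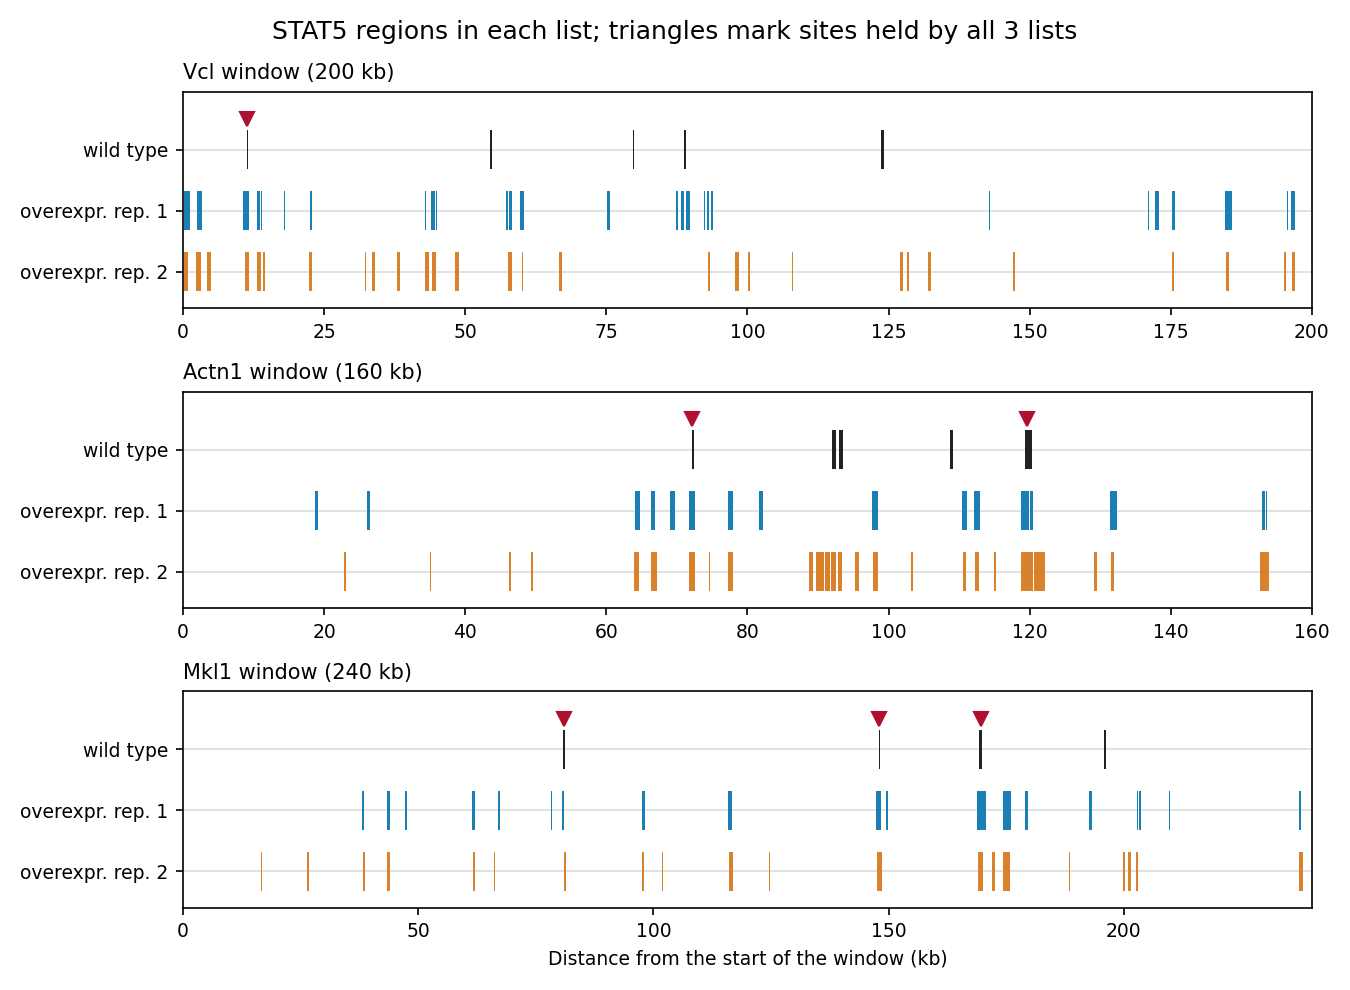
Position of every STAT5 region in the Vcl, Actn1 and Mkl1 windows, as the distance in kb from the start of the window (x axis), with 1 row per list. Triangles mark the sites held by all 3 lists, 1 at Vcl, 2 at Actn1 and 3 at Mkl1.

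Regions of the 3 lists that overlapped by at least 1 bp were next merged into sites, to see which were common to wild-type and overexpressing cells. The windows held 112 such sites, 49 at Vcl, 33 at Actn1 and 30 at Mkl1. All 3 lists held 6 of them (5.36%), against 2.63% of the 113354 sites of the genome. Both overexpression replicates held 34, the 6 included and 28 others, where 26.8% of all sites of the genome were held by both. The 28 others were 25.0% of the sites in the windows, against 24.1% of the sites of the genome. Replicate 1 alone held 33 sites (29.5%, against 29.1% of the sites of the genome), replicate 2 alone 37 (33.0%, against 35.3%), and 6 were found only in wild type (5.36%, against 7.15%). The share held by all 3 lists rests on 6 sites. The other shares are near those of the genome, and none is a result about the 3 genes. When regions had to overlap by at least 50% of both to be linked, 3 sites were in all 3 lists, 0 at Vcl, 2 at Actn1 and 1 at Mkl1. Linking could run through a further region, so wild type need not have met this rule with both replicates. Wild type and replicate 2 alone held 2 sites together, both at Actn1 (1.79%, against 0.69% of the sites of the genome). Wild type and replicate 1 held 0 without replicate 2, against 0.97% of the sites of the genome.

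At Vcl, the site in all 3 lists lay at chr14:21710853-21711720 on mm9. Its wild-type region, chr14:21711253-21711440, was 188 bp wide, the narrowest of the 14 wild-type regions. The regions over it were 868 bp wide in replicate 1 and 651 bp in replicate 2, and each took in the whole wild-type region. The other 4 wild-type regions at Vcl had no overlap in either replicate. One of them, chr14:21788803-21789110, lay 72 bp from a replicate 1 region and 3934 bp from a replicate 2 region. The regions at chr14:21754463-21754791 and chr14:21779643-21779871 lay 2491 and 3942 bp from replicate 1. The region at chr14:21823642-21824189, at 548 bp the widest wild-type region of the window, lay 18553 bp from replicate 1 and 2844 bp from replicate 2. By number, Vcl thus had the most overexpression regions of the 3 windows and the fewest wild-type regions with a counterpart. Per Mb, replicate 2 was denser at Actn1 (156.2) than at Vcl (140). The number of counterparts also depended on the edge of the window. Another wild-type region, overlapped in both replicates, had its centre 2.03 kb outside it.

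At Actn1, 4 of 5 wild-type regions had a counterpart. The first site in all 3 lists, chr12:81311731-81312608, had a wild-type region of 278 bp, replicate 1 regions of 359 and 439 bp and a replicate 2 region of 878 bp. The second, chr12:81358764-81360538, had a wild-type region of 998 bp, replicate 1 regions of 569, 549 and 379 bp and a replicate 2 region of 1775 bp. That wild-type region was the second widest of all 13278, and 74 of the 71803 replicate 2 regions were wider than the one over it. Another replicate 2 region, of 1453 bp, followed at chr12:81360671-81362123 with no replicate 1 or wild-type region over it. As listed, the site was thus 1 broad region in wild type and in replicate 2, and 3 narrower regions in replicate 1. Of these, chr12:81358773-81359341 and chr12:81359353-81359901 lay at most 20 bp apart, and the former lay 21 bp from the wild-type region. Replicate 1 held many regions split by such short gaps, as given below, so no difference in binding is read from this.

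The sites held by wild type and replicate 2 alone lay side by side at Actn1, at chr12:81331806-81332560 and chr12:81332830-81333490. Their wild-type regions were 558 and 448 bp wide and their replicate 2 regions 686 and 619 bp. Replicate 1 had no region between 81322151 and 81337672, a stretch of 15.5 kb that held 6 replicate 2 regions and 2 wild-type regions. The remaining wild-type region, chr12:81348703-81349100, lay 1362 bp from replicate 1 and 1424 bp from replicate 2. Replicate 1 thus had no region at the 2 sites that wild type and replicate 2 shared. The other replicate 2 regions of that stretch had no wild-type region over them. Stretches of this kind were seen elsewhere too. At Vcl, replicate 1 had no region for 48.9 kb, where replicate 2 had 6 and wild type 1, and replicate 2 had none for 26.0 kb, where replicate 1 had 7 and wild type 2.

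At Mkl1, 3 of 4 wild-type regions lay in sites of all 3 lists. The site at chr15:80988843-80990640 had a wild-type region of 558 bp, a replicate 1 region of 1798 bp and a replicate 2 region of 958 bp. The replicate 1 region was the widest of all 71561 in its list, with no other of that width. The site at chr15:80967423-80968567 had a wild-type region of 318 bp, replicate 1 regions of 149 and 848 bp and a replicate 2 region of 1004 bp. The site at chr15:80900633-80901347 had regions of 517, 339 and 404 bp, and the regions of the 2 replicates shared only 28 bp there. The fourth wild-type region, chr15:81015863-81016210, lay 2692 bp from replicate 1 and 3633 bp from replicate 2. At an overlap of 1 bp, Mkl1 thus had 3 sites in all 3 lists and Actn1 had 2. With reciprocal overlap Mkl1 had 1 and Actn1 2, so the order of these genes depended on the overlap asked for. At chr15:80988843-80990640 (558 against 1798 bp) and the first common Actn1 site (278 against 878 bp), wild type met the rule with only 1 replicate. These sites counted because regions could be linked through a further region.

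**Figure D3:**
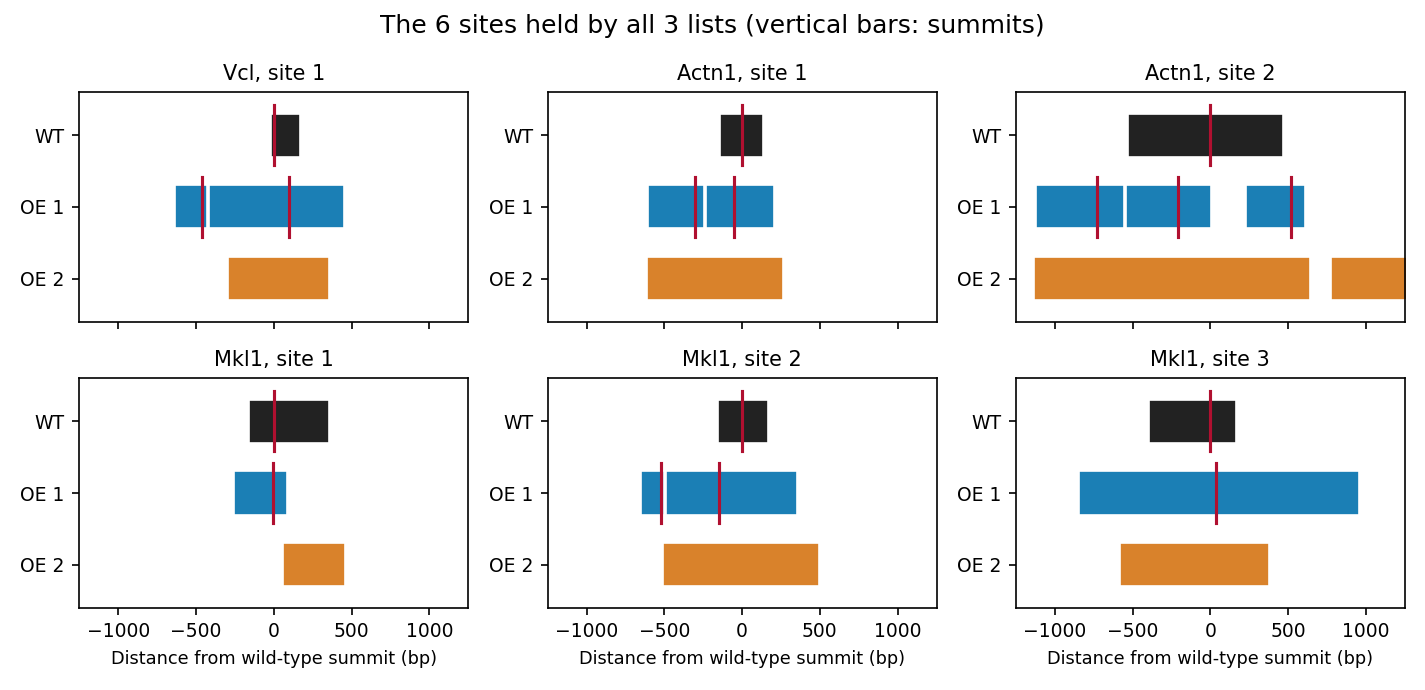
The 6 sites held by all 3 lists, with regions of wild type (WT) and overexpression replicates 1 and 2 (OE 1, OE 2) drawn to scale by distance in bp from the wild-type summit (x axis), and summits as vertical bars where the list gives them. The second Actn1 site is broad in wild type (998 bp) and replicate 2 (1775 bp) and has 3 narrower regions in replicate 1. Of those 3, the regions of 569 and 549 bp lie at most 20 bp apart. The first Mkl1 site has the least overlap between replicates (28 bp).

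Summits, given by the authors for wild type and replicate 1, were compared at these 6 sites. The wild-type summit lay 95 bp from the nearest replicate 1 summit at the Vcl site, 55 and 210 bp at the Actn1 sites, and 3, 150 and 35 bp at the Mkl1 sites in order of position. Replicate 1 regions covered the whole wild-type region at 4 of the 6, 77.9% of it at the second Actn1 site and 47.8% at the first Mkl1 site. Replicate 2 covered the whole wild-type region at 5 and 57.6% at the first Mkl1 site. The smallest summit distance, 3 bp, was thus at the site where the regions themselves overlapped least.

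Counted over the windows, 6 of 14 wild-type regions (42.9%, 95% exact binomial interval 17.7 to 71.1%) were overlapped in both replicates, where 23.3% of the whole wild-type list were. On reciprocal overlap of 50%, asked of the wild-type region with each replicate directly, 7.14% were, where 8.98% of the whole list were. In at least 1 replicate 8 of 14 were overlapped (57.1%, interval 28.9 to 82.3%), where 38.9% of the whole list were. Both intervals at 1 bp, which cover counting error only, include the value of the whole list. The whole list is not a like baseline, since crowding led to the choice of the windows. Overexpression regions covered 4.62 to 10.1% of them, against 1.19 and 1.23% of the autosomes. What this adds to the overlap was not tested. By gene, the number overlapped in at least 1 replicate was 1 of 5 at Vcl, 4 of 5 at Actn1 and 3 of 4 at Mkl1. The numbers are too small to tell the genes apart from each other, as the intervals of 0.505 to 71.6% for Vcl and 28.4 to 99.5% for Actn1 overlap.

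Between the replicates, 48 of 81 replicate 1 regions (59.3%, interval 47.8 to 70.1%) were overlapped in replicate 2, where 51.9% of the whole list were. Those 48 lay in 34 sites, so they are not independent and the interval is likely too narrow. On reciprocal overlap of 50%, 33.3% were, where 32.7% of the whole list were. In the other direction, 34 of 73 replicate 2 regions (46.6%, interval 34.8 to 58.6%) were overlapped in replicate 1, where 43.1% of the whole list were. These shares are near those of the lists as a whole and are no result about the cytoskeletal genes. The replicate 1 shares were 17 of 34 at Vcl, 15 of 22 at Actn1 and 16 of 25 at Mkl1, and the replicate 2 shares 13 of 28, 10 of 25 and 11 of 20. Wild type overlapped 7 of the 81 replicate 1 regions (8.64%, interval 3.55 to 17.0%) and 8 of the 73 replicate 2 regions (11.0%, interval 4.85 to 20.5%), where it overlapped 6.55% and 5.25% of the whole lists.

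**Figure D4:**
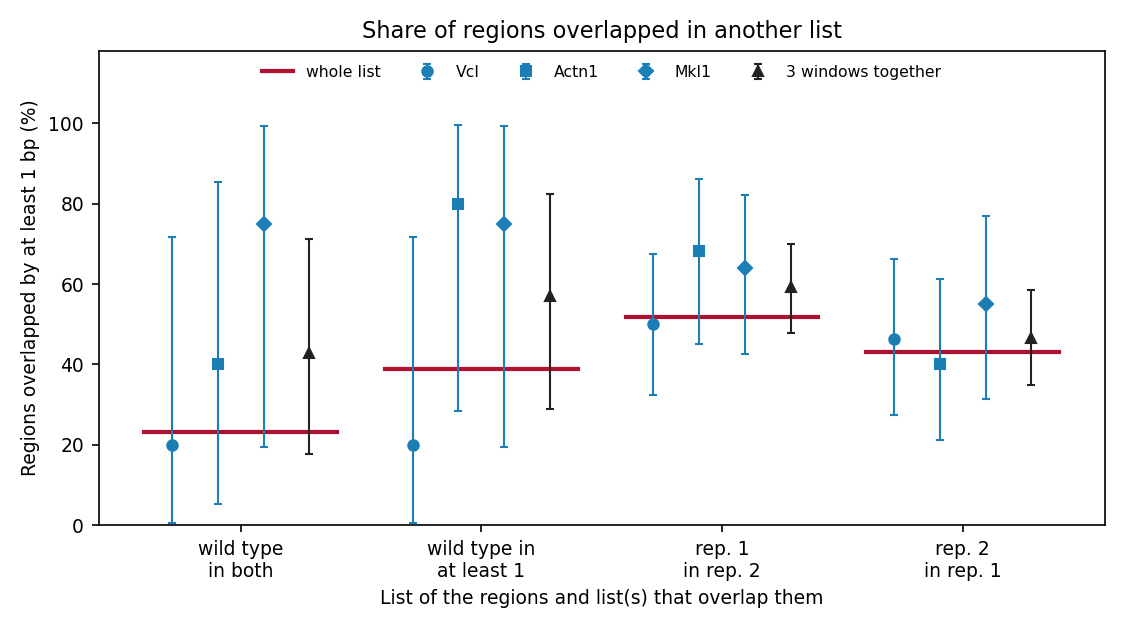
Share of regions overlapped by at least 1 bp in another list (y axis, %), for each window and for the 3 together, with 95% exact binomial intervals (bars) and the share in the whole list (line). Of the intervals for the 3 windows together, each includes the value of the whole list, such as 59.3% (47.8 to 70.1%) against 51.9% for replicate 1 in replicate 2. Crowding led to the choice of the windows, so the whole list is not a like baseline.

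Widths were compared next. Over the 3 windows the median region was 373 bp wide in wild type, and 408 and 530 bp wide in replicates 1 and 2, against 379, 398 and 378 bp in the whole lists. The replicate 2 median lay farthest from that of its list as deposited. With replicate 1 neighbours at most 20 bp apart joined, the replicate 1 median was 608 bp, against 468 bp in its joined list, and above that of replicate 2, so the order of the replicates in width depended on how split regions were counted. By gene the replicate 2 medians were 510 bp at Vcl, 614 bp at Actn1 and 465.5 bp at Mkl1, and each was above 378 bp. The replicate 1 medians were 308.5, 478.5 and 428 bp, with Vcl below its list. The wild-type medians were 308, 448 and 432.5 bp. Wild-type widths ranged from 188 to 998 bp, those of replicate 1 from 138 to 1798 bp and those of replicate 2 from 189 to 1775 bp. At least 1000 bp were reached by 0 of 14 wild-type regions, 3 of 81 replicate 1 regions (2 at Vcl and 1 at Mkl1) and 6 of 73 replicate 2 regions (4 at Actn1 and 2 at Mkl1). In the whole lists, 1 of 13278 wild-type, 464 of 71561 replicate 1 and 2057 of 71803 replicate 2 regions were that wide.

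**Figure D5:**
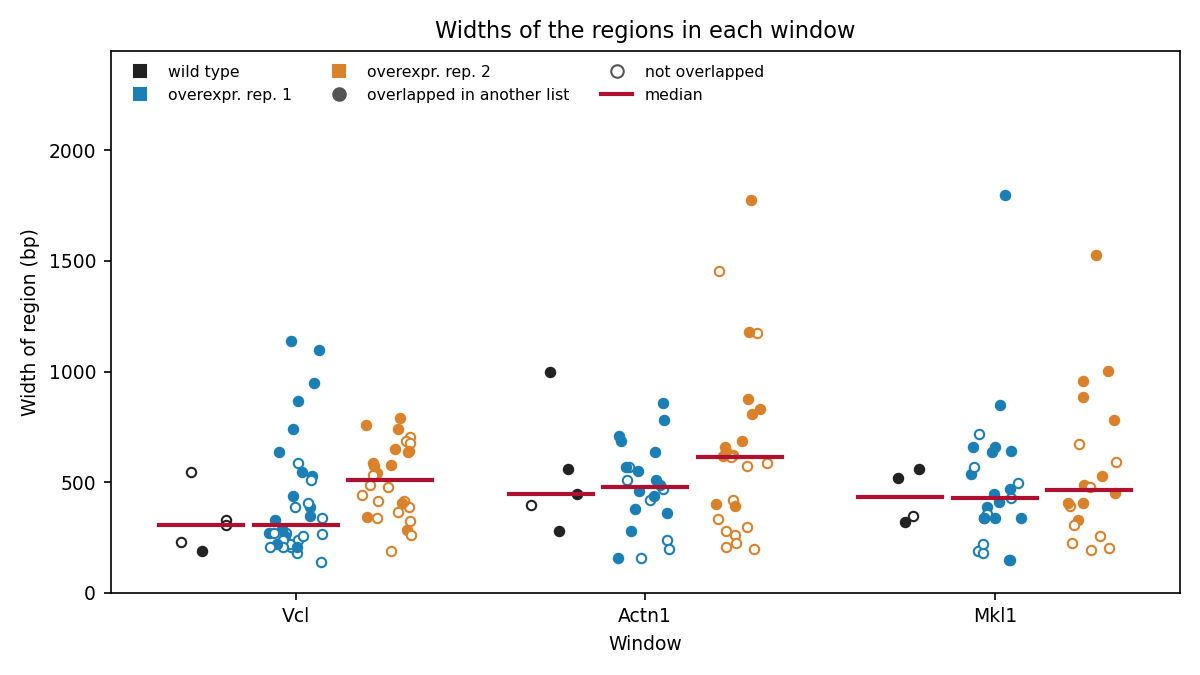
Width in bp (y axis) of each STAT5 region in the Vcl, Actn1 and Mkl1 windows (x axis), with 1 point per region, filled where another list overlapped it, and the median as a line. As deposited, replicate 2 has the highest median at each gene (510, 614 and 465.5 bp), and the widest regions at Actn1 (1775 bp) and Mkl1 (1798 bp) were overlapped in other lists.

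Regions that the other replicate overlapped had the higher median width at each gene, though their widths overlapped those of the other regions. In replicate 1 their median was 479 bp against 269 bp for the others over the 3 windows, and in replicate 2 it was 639.5 against 413 bp. The whole lists showed the same order, with 458 against 348 bp and 468 against 329 bp. Width and overlap are not independent measures, so nothing is read from this order. The widest region was at chr14:21700083-21701220 at Vcl in replicate 1 (1138 bp), and at chr14:21744099-21744886 in replicate 2 (788 bp). At Actn1 the widest replicate 1 region, chr12:81352083-81352940, had 858 bp. At Mkl1 the widest replicate 2 region, chr15:80994296-80995821, had 1526 bp and lay over 3 replicate 1 regions of 659, 539 and 448 bp.

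Replicate 1 held many regions split by short gaps. Of the 34 sites common to the replicates, 12 (35.3%) had more than 1 replicate 1 region and 0 had more than 1 replicate 2 region, where the shares in the genome were 20.1% and 2.17%. Of 78 gaps between neighbouring replicate 1 regions in the windows, 21 (26.9%, exact binomial interval 17.5 to 38.2%) were at most 20 bp long, where 18.0% of the gaps in the whole list were. Replicate 2 had 0 such gaps of 70 (interval up to 5.13%) and wild type 0 of 11 (up to 28.5%). With such neighbours joined, replicate 1 had 25 regions at Vcl, 15 at Actn1 and 20 at Mkl1, in place of 34, 22 and 25. The Vcl and Actn1 windows then held fewer regions in replicate 1 than in replicate 2 (28 and 25), and Mkl1 as many (20). The order of the replicates at Vcl and Mkl1 thus depended on how closely spaced regions were counted.

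Along the windows, regions lay in groups. At Vcl the first 20 kb held 8 replicate 1 and 6 replicate 2 regions and the Vcl site common to all lists, while the stretch from 100 to 120 kb held 0 and 2. At Actn1 the 60 to 80 kb stretch held 8 replicate 1 and 5 replicate 2 regions, and the 80 to 100 kb stretch 2 and 7. No list had more than 2 regions in any 20 kb of the first 60 kb of that window, and wild type had 0 there. At Mkl1 the 160 to 180 kb stretch, with the widest replicate 1 region, held 5 and 3 regions. The median distance between neighbouring centres was 1390 bp at Vcl, 2475.5 bp at Actn1 and 5083 bp at Mkl1 in replicate 1, against 8420 bp in the whole list. In replicate 2 it was 4961.5, 2807 and 11552.5 bp, against 11408 bp. Spacing at Mkl1 in replicate 2 was thus about that of the whole list. Short gaps between split regions enter the replicate 1 values, and crowding led to the choice of the windows, so nothing is read from these distances.

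Just outside the right edge of the Vcl window lay another site in all 3 lists, not counted among the 6, with a wild-type region at chr14:21901853-21902210 (358 bp, centre 2.03 kb outside), a replicate 1 region of 858 bp and a replicate 2 region of 659 bp. Just inside that edge the last replicate 1 and replicate 2 regions were 439 and 573 bp wide, with centres 3.23 and 3.26 kb from it. The first regions inside the left edge, of 1138 bp in replicate 1 and 757 bp in replicate 2, had centres 0.65 and 0.52 kb from it. At Mkl1 the nearest regions outside lay 1.51 and 1.53 kb from the right edge (568 and 457 bp wide), and those inside 2.43 and 2.32 kb (469 and 779 bp wide). At Actn1 the nearest regions outside lay 5.88 and 5.78 kb from the right edge (588 and 405 bp wide), and those inside 6.47 and 6.71 kb (158 and 1181 bp wide).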

How the data were processed

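The deposited values are positions of called regions (start, end and, for wild type and replicate 1, a summit) on mm9, per the file headers and the file names in the labels. Region names show that MACS called replicate 2. For the other lists the caller, and for all of them the version, aligner, controls and thresholds, are not stated in the headers or labels. All 81 replicate 1 members and 12 of 14 wild-type members have edges on a 10 bp grid (tolerance 1 bp at the end), as do 2 of 73 in replicate 2. In the whole lists the shares are 100% for replicate 1, 87.1% for wild type and 1.95% for replicate 2. The labels tie each list to more than 1 library. Each was taken for the stimulated STAT5 library its track line names.

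Starts were counted from 1, and summits were left as deposited. Overlap meant at least 1 bp, and overlapping regions were merged into sites. Regions linked only through a further region joined the same site. Intervals are 95% exact (Clopper-Pearson) and cover counting error only. They take regions as independent, which several regions of 1 site are not. Autosomes were cut into whole stretches from position 0, with the last region's end as chromosome length. No test was run, since each list is of 1 library and the labels do not say whether replicates came from separate cultures. Windows, genes and lists were chosen with earlier results of these data known. Named one by one were sites in all 3 lists, wild-type regions and each list's widest region. Others named (sites shared by wild type and replicate 2, regions at edges or free stretches) were chosen after their values were seen. Other actin genes and genes of like pattern needed gene positions on mm9 and have no result. Overlap functions were tested on simulated data, and counts equalled those of bedtools 2.31.1 for 6 ordered pairs of lists. Scripts used Python 3.11.15, numpy 2.4.6, scipy 1.17.1 and matplotlib 3.10.9.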

Additional observations from a re-analysis of the deposited data

How the results depend on the processing

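Of 98 alternative values, 76 stayed as reported, that is within 1.5 times for numbers and within the 95% interval for shares and median widths, and 22 moved. Joining neighbours at most 20 bp apart and keeping on-grid regions were chosen after seeing the data. Windows extended by 50 kb on either side, longer by construction, held 10 wild-type regions at Vcl, and 46 (Vcl) and 34 (Mkl1) in replicate 2. Keeping regions at least as wide as their list's median left 1 (Vcl) and 2 (Mkl1) in wild type and 12 (Vcl) and 14 (Mkl1) in replicate 1, by construction fewer. Sites in all 3 lists numbered 0 at Vcl, 1 at Mkl1 and 3 in all with a reciprocal overlap of 50%, 1 at Actn1 with centres within 200 bp, and with neighbours joined and reciprocal overlap 0 at Vcl, 1 at Actn1, 1 at Mkl1 and 2 in all. With on-grid wild-type regions only, sites in all 3 lists numbered 2 at Mkl1, as many as at Actn1, and 5 in all. With 1 replicate list left out, sites held by wild type and the remaining list numbered 1 at Vcl, 2 to 4 at Actn1 (4 without replicate 1), 3 at Mkl1 and 6 to 8 in all. On reciprocal overlap, the share of wild-type regions in both replicates fell to 7.14% (0% joined), and of replicate 1 regions in replicate 2 to 33.3% (46.7% joined, 37.0% by centres). The replicate 1 median width was 608 bp joined. Apart from settings that can only lower a value, the cause was not tested. No paired analysis was possible because the groups compared share only 1 replicate number and no test was run. Depth is unknown and limits any reading of numbers of regions.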
